A study of Mus musculus with 8 samples.

Results

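Sarcomere and muscle contraction genes were followed in tissue of the mouse posterior second heart field (pSHF) taken at E9.5. The group has 40 members, chosen by gene name: the thick and thin filament proteins of heart muscle, proteins of the Z-disc and of filament assembly, isoforms best known from skeletal muscle, and the contractile proteins of smooth muscle. They were represented on the array by 75 of 41174 probes, and 64 of these were among the 20028 probes tested, so that every member had at least 1 tested probe. The study compared embryos heterozygous for a germline Tbx5 mutation (Tbx5-/+, 1 mutated allele) with wild-type embryos that carried no mutant allele, with 4 arrays in each group. Both genotypes were labelled as embryos 1, 5, 6 and 7, and each sample was described as pooled tissue without the number of embryos in the pool. The mice were of mixed background. The tissue is the mesenchyme behind the heart that gives rise to the atrial septum and the venous pole, and it borders on beating myocardium. Since the samples are bulk RNA, fewer muscle cells and less muscle RNA per cell cannot be told apart, and p-values measure the spread between these pools alone.

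A sarcomere shortens when myosin heads of the thick filament pull on actin of the thin filament. Troponin and tropomyosin switch the thin filament on when calcium rises, the Z-disc anchors the thin filaments, and titin spans from the Z-disc to the middle of the sarcomere. The embryonic heart uses a mixture of isoforms that are later sorted between atrium, ventricle, skeletal muscle and smooth muscle, so that Acta2, Tagln and Myl1 are also found in early heart cells. The second heart field holds progenitors that switch these genes on as they join the heart. Tbx5 is a T-box transcription factor of the posterior heart.

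Signals were put on a common log2 scale by variance stabilization, and all values below are on that scale unless said otherwise. A difference is Tbx5-/+ minus wild-type, with the standard error (SE) of limma. Tbx5 itself, the mutated gene, read 9.01, 9.73, 9.16 and 8.62 in Tbx5-/+ 1, 5, 6 and 7 and 11.47, 11.56, 10.42 and 11.54 in the same wild-type numbers. It was lower on every mutant array, by a difference of -2.12 ± 0.32 (limma, adjusted p = 0.0922, and 0.0336 with the replicate block). Whether its probe lies in the mutated part of the gene is not given in the sources used here. Across the array the fit called 0 probes (0%) at an adjusted p under 0.05, although 3707 probes (18.5%) were lower and 678 (3.39%) higher at an unadjusted p under 0.05. With the embryo number as a block it called 2218 probes (11.1%), of which 2142 (10.7%) were lower. The median difference of all probes tested was -0.19, and 34.6% of them lay above 0. The level of one probe was never compared with that of another, because brightness on an array depends on the probe.

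Of the 64 member probes, 0 passed the adjusted threshold in limma, with 3 lower and 0 higher at an unadjusted p under 0.05 (background 18.5% and 3.39%). The groups did not overlap for 4 member probes, all lower in Tbx5-/+, against a background of 8.96% of probes lower and 0.744% higher without overlap. With the replicate block, which called 11.1% of all probes and 10.7% as lower, 3 of 64 member probes were called, all lower. They belong to 2 genes, Ttn with 2 probes and Acta2 with 1. Of the 64 probes 55 were well above background on all 8 arrays and 9 on all wild-type arrays but not on all Tbx5-/+ arrays, among them 1 of the 2 called Ttn probes, so these 9 were tested through wild-type alone. On each member's brightest tested probe, 21 genes were higher and 19 lower, with a median of 0.03, from -1.09 for Myh6 to 0.83 for Smpx. Of the 40 genes, 29 lay above the median of all probes, and the background share of that count is 50%. The position of the members varied with the processing. Their median stood 0.22 above that of all probes under variance stabilization and 0.28 above it after 75th percentile scaling. It stood 0.05 above it after normexp background correction with quantile normalization. Pairs on the first slide gave a member median of -0.16, with 13 genes above 0 and 27 below, while pairs on the second slide gave 0.36, with 27 above and 13 below. All probes tested had medians of -0.18 and -0.20 on the same slides.

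**Figure D1:**
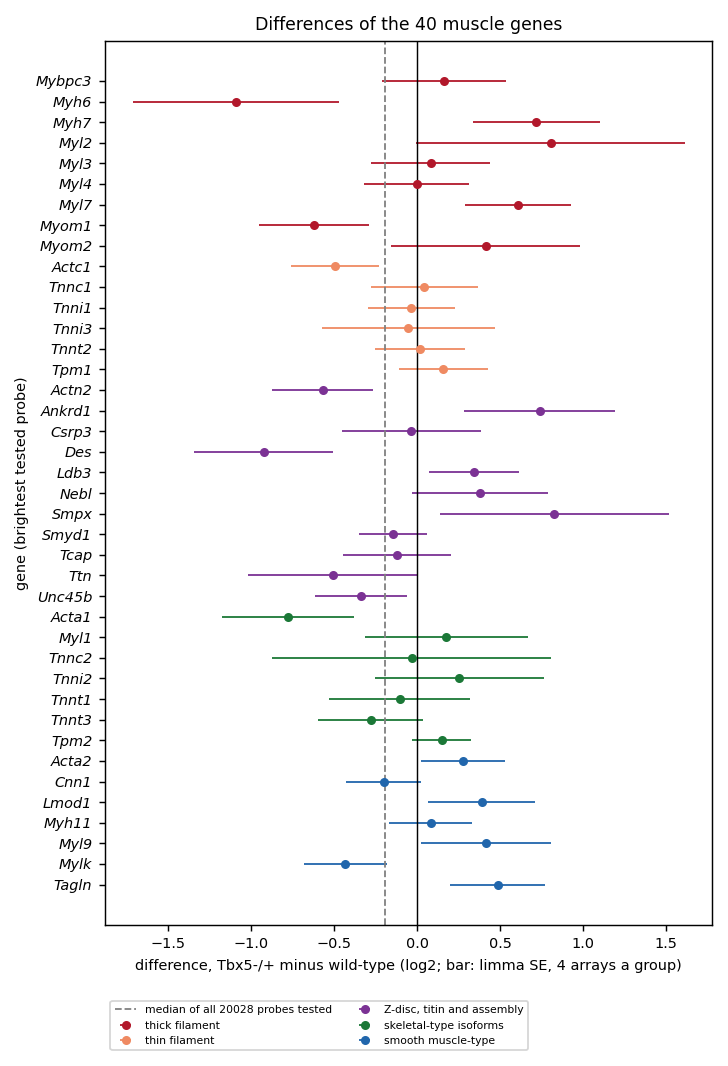
Difference between Tbx5-/+ and wild-type (x axis, log2) for the brightest tested probe of each of the 40 genes (y axis), coloured by role, with limma SE over 4 arrays a group; the dashed line is the median of all 20028 probes tested, -0.19. The genes lie on both sides of 0, 21 above and 19 below, from -1.09 for Myh6 to 0.83 for Smpx.

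The muscle genes varied together between arrays of one genotype. Their mean was 11.90, 12.93, 12.60 and 13.09 in Tbx5-/+ 1, 5, 6 and 7 and 12.65, 12.57, 12.94 and 12.28 in wild-type 1, 5, 6 and 7. The group means of 12.63 and 12.61 lay closer together than the arrays within either group. Tbx5-/+ 1 was the lowest of its group for 29 of the 40 genes (72.5%), against 42.2% of all probes tested. Its members lay a median of 0.98 below the other mutant arrays, where all probes lay 0.08 below. Wild-type 7 was the lowest of its group for 27 of 40 genes, against 12.5% of all probes, and wild-type 6 was the highest for 22. Tbx5-/+ 7 was the highest mutant array for 21 genes.

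**Figure D2:**
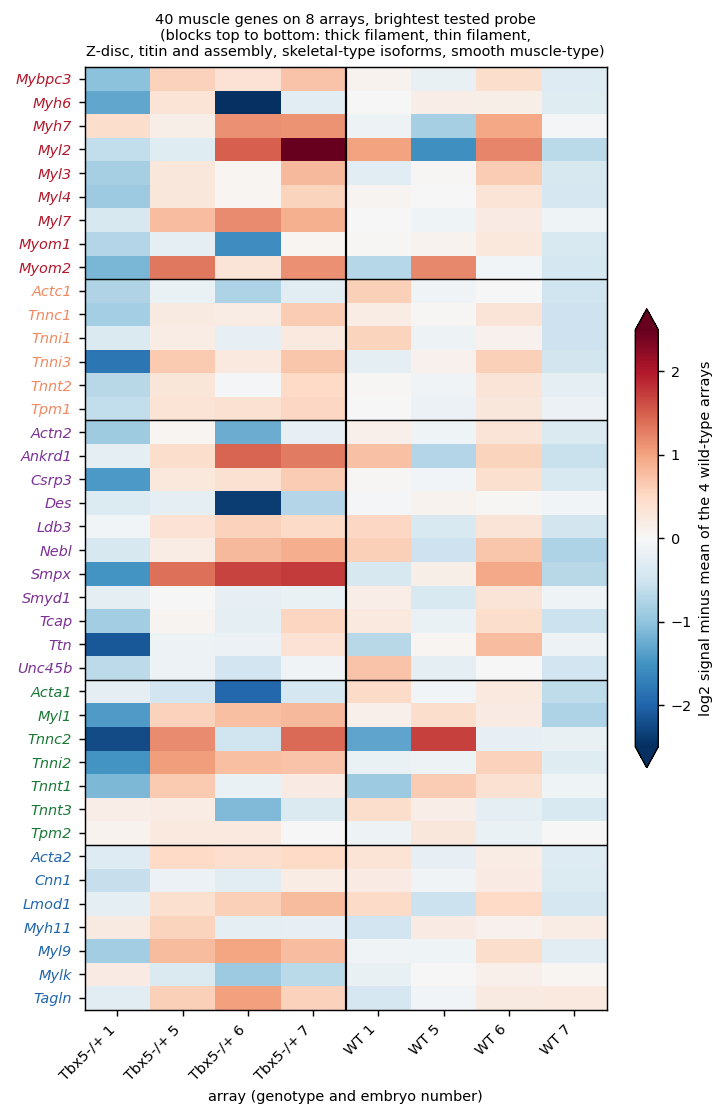
Log2 signal of the 40 genes (rows, in 5 blocks by role) on the 8 arrays (columns), each minus the mean of the 4 wild-type arrays; the colour scale stops at 2.5 in both directions, beyond which colours are not told apart. Tbx5-/+ 1 is low for 29 of 40 genes within its group, while Tbx5-/+ 6 is low for single genes such as Myh6, Des and Acta1.

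Heart muscle markers that are not sarcomere proteins were, as a mean, also low in Tbx5-/+ 1. For 9 such genes tested of 12, among them Nppa (an atrial natriuretic hormone), Ryr2 and Atp2a2 (calcium handling), the mean level was 10.01, 11.30, 11.03 and 11.56 in Tbx5-/+ 1, 5, 6 and 7 and 10.86, 10.76, 11.48 and 10.61 in the wild-type arrays. Tbx5-/+ 1 was the lowest and wild-type 6 the highest of its own group by this list too, and the 2 groups overlapped. Of the 9 genes 7 were lowest of the mutants in Tbx5-/+ 1. The exceptions were Nkx2-5, a cardiac transcription factor, which was highest there at 12.33, and Hspb7, a small heat shock protein, which was lowest in Tbx5-/+ 6 at 8.10. Bmp10, a marker of trabecular myocardium, was well above background on 0 arrays, Hcn4, a pacemaker channel, on 1 Tbx5-/+ and 3 wild-type arrays and Pln, a calcium pump inhibitor, on 1 of each genotype. Epicardial genes were low in the same mutant array, with a mean of 9.03 in Tbx5-/+ 1 against 10.4 to 10.6 in the 7 other arrays. Of the 7 epicardial genes only Lrrn4 was not lowest of the mutants there. Primitive erythrocyte genes had a mean of 12.59 in Tbx5-/+ 1, 14.13 to 15.15 in the other mutant arrays and 12.65 to 14.87 in wild-type. Liver bud genes had 8.01, 9.13 to 10.65 and 9.15 to 11.40. Neural tube genes were highest of the mutants in Tbx5-/+ 1, at 9.59 against 8.53 to 8.99. The list of posterior second heart field genes, with all 10 tested, ran from 8.87 to 9.55 in Tbx5-/+ and from 9.71 to 10.3 in wild-type, without overlap. It includes Tbx5 itself, and 3 of its genes (Foxf2, Isl1 and Wnt2) had differences above 0. Gata4 and Ptch1 were well above background on 2 Tbx5-/+ arrays, and Osr1, Foxf1a and Gli1 on 3. Those genes were tested through wild-type alone, where they are high, and all had differences below 0. A list of 7 smooth muscle and pericyte genes, none a member and 5 of them also on the list of further contractile genes below, lay between 10.4 and 11.2 in Tbx5-/+ and between 11.6 and 11.8 in wild-type, and all 7 of its differences were below 0. Endothelial genes (10.02 to 10.76 against 10.80 to 11.08) were likewise lower in Tbx5-/+ without overlap, with 3 differences above 0 and 5 below. Foregut endoderm genes (9.78 to 10.08 against 10.20 to 10.51) were so too, with 1 above and 7 below. The median of all probes tested also ran lower in Tbx5-/+ without overlap, from 9.47 to 9.83 against 9.89 to 10.06 in wild-type. The part of these tissues in the muscle gene values was not tested.

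Leaving out Tbx5-/+ 1 changed the count more than any other array did. That array is singled out because its values for these genes were low, so p-values without it are descriptions and not tests. Without it limma called 3842 probes (19.2%), with 1408 higher (7.03%) and 2434 lower (12.2%), and 10 of the 64 member probes, 6 higher and 4 lower. The 6 higher ones were for Smpx, Myl7, Myl9, Myl3, Tnni2 and Tagln, and the 4 lower ones were 2 of Ttn and 1 each of Acta2 and Mylk. The member median was then 0.36, where all probes had -0.16.

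**Figure D3:**
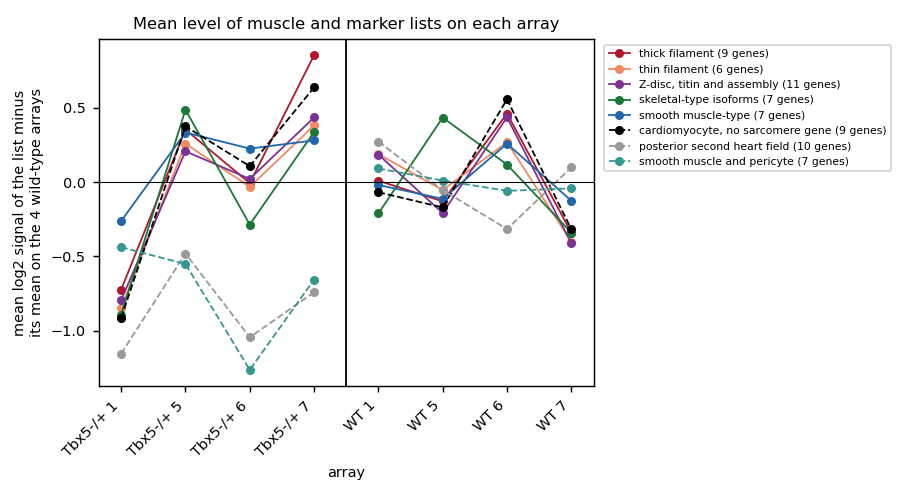
Mean log2 signal of each muscle role (solid lines) and of 3 marker lists (dashed lines) on the 8 arrays, each minus its own mean on the 4 wild-type arrays; lines only join the points of a list. The muscle roles and the non-sarcomere cardiomyocyte list are lowest in Tbx5-/+ 1 and overlap between genotypes. The posterior second heart field list and the smooth muscle and pericyte list lie lower in all 4 mutant arrays. So do the endothelial and foregut lists, which are not drawn, and the median of all probes tested.

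The sequences shown are those of the Ttn and Acta2 probes called with the replicate block and of both Myh6 probes, which are compared with Myh7, with a cardiac troponin T probe that did not differ as a comparison. They are 60 bases long, sense to the transcript and annotated on mm9, and no base is marked by capitals because they have no base change or motif to mark.
Ttn, chr2:76783527-76783586, minus strand: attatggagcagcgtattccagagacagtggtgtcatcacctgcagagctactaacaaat
Ttn, chr2:76803165-76803224, minus strand: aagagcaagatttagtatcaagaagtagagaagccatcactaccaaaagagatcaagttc
Acta2, chr19:34322995-34326249, minus strand, across an exon junction: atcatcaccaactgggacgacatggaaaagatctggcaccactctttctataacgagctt
Myh6, chr14:55565256-55565315, minus strand: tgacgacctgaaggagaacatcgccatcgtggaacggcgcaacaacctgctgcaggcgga
Myh6, chr14:55563592-55565177, minus strand, across an exon junction: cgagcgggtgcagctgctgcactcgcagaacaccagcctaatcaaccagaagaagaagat
Tnnt2, chr1:137747976-137748288, plus strand, across an exon junction: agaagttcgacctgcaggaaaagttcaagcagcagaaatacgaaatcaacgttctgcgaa

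The thick filament genes did not move one way. On their brightest probes 6 of 9 were higher and 3 lower in Tbx5-/+, with a median of 0.16, and limma called 0 of them (0 at an unadjusted p under 0.05 in either direction). Myh6 and Myh7 encode the alpha and beta heavy chains of cardiac myosin, the motor of the thick filament. Myh6 read 13.99, 15.63, 12.15 and 15.04 in Tbx5-/+ 1, 5, 6 and 7 and 15.28, 15.46, 15.44 and 14.99 in wild-type. The wild-type arrays were close together, while Tbx5-/+ 6 and 1 lay below them and the other mutant arrays did not, for a difference of -1.09 ± 0.62 (adjusted p = 0.302). Without Tbx5-/+ 6 it was -0.41. The second Myh6 probe gave 13.59, 15.24, 12.51 and 14.73 in Tbx5-/+ and 14.73, 14.98, 15.32 and 14.54 in wild-type, with the same 2 mutant arrays at the bottom.

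Myh7 had a difference of the opposite sign. Its brightest probe read 16.31, 16.02, 17.02 and 17.00 in Tbx5-/+ 1, 5, 6 and 7 and 15.75, 15.04, 16.85 and 15.85 in wild-type. The mutant was higher than the wild-type of the same number in 4 of 4 pairs, although the groups overlapped, for a difference of 0.72 ± 0.38 (1.64-fold; adjusted p = 0.277, and 0.0622 with the replicate block). The overlapping second probe, whose difference was 0.89 ± 0.43, gave the same order in 4 of 4 pairs. Within slides the brightest probe differed by 0.77 and 0.66.

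Myh7 relative to Myh6 was then computed within each array, where differences in overall muscle content cancel if both genes share them. This and the other contrasts between probes of one array were chosen after the values were seen, so their p-values are descriptions only. The offset between the probes has no meaning of its own, and only its spread between arrays does. On the second probe of each gene, Myh7 minus Myh6 was 2.87, 0.82, 4.49 and 2.21 in Tbx5-/+ 1, 5, 6 and 7. It was 1.06, -0.33, 1.58 and 0.99 in wild-type. It was larger in the mutant in 4 of 4 pairs, by 1.81, 1.15, 2.90 and 1.22, for a mean of 1.77. The groups overlapped through Tbx5-/+ 5, and the exact two-sided permutation test over 70 assignments gave p = 0.114 (0.229 after Benjamini-Hochberg over the 10 contrasts of this kind). The exact sign-flip test over pairs gave p = 0.125, the smallest that 4 pairs allow. The brightest probes of the 2 genes gave 1.81, and the second probes without Tbx5-/+ 6 gave 1.14.

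**Figure D4:**
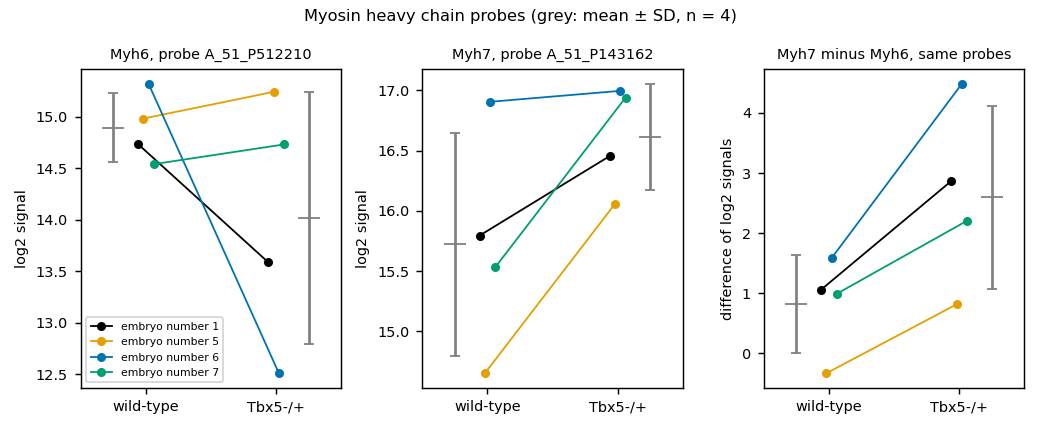
Log2 signal of Myh6 and of Myh7, each on its second probe, and their difference (y axes) in wild-type and Tbx5-/+. A line is drawn for each embryo number, with the mean ± SD of 4 arrays in grey. Myh6 is lower in the mutant of numbers 1 and 6, Myh7 is higher in the mutant of every number, and Myh7 minus Myh6 is larger in 4 of 4 pairs, by 1.15 to 2.90.

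Myosin light chains, which stabilise the lever arm of the heavy chain, showed no call. Myl7, the atrial regulatory light chain, read 16.61, 17.78, 18.20 and 17.91 in Tbx5-/+ 1, 5, 6 and 7 and 17.03, 16.91, 17.22 and 16.91 in wild-type. The wild-type arrays lay within a narrow band, 3 mutant arrays were above it and Tbx5-/+ 1 was below it. The difference was 0.61 ± 0.32 (adjusted p = 0.272), and without Tbx5-/+ 1 it was 0.95 (adjusted p = 0.0146). It was 0.11 after quantile normalization and 0.05 (adjusted p = 0.933) with the 5' to 3' gap described below as a covariate. Myl2, the ventricular regulatory light chain, was the most variable of the chains, at 10.14, 10.45, 12.25 and 13.40 in Tbx5-/+ and 11.76, 9.23, 11.97 and 10.08 in wild-type. Its difference of 0.80 ± 0.81 was smaller than its error, and high values stood in both genotypes. Myl4, the atrial essential light chain, differed by -0.00 ± 0.32 on one probe and 0.05 ± 0.32 on the other.

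Myom1, which crosslinks thick filaments at the M-band, read 10.54, 11.04, 9.72 and 11.32 in Tbx5-/+ 1, 5, 6 and 7 and 11.31, 11.36, 11.53 and 10.90 in wild-type. Tbx5-/+ 6 was again the lowest, and the difference was -0.62 ± 0.33 (adjusted p = 0.278), or -0.31 without Tbx5-/+ 6. The other thick filament members, Mybpc3, Myl3 and Myom2, had differences from 0.08 to 0.41.

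Thin filament genes of the heart were nearly level between genotypes, with 3 of 6 higher, a median of -0.01 and 0 calls by limma (0 at an unadjusted p under 0.05). Tnnt2, cardiac troponin T, which holds the troponin complex on tropomyosin, read 15.20, 16.19, 15.86 and 16.38 in Tbx5-/+ 1, 5, 6 and 7 and 15.91, 15.79, 16.20 and 15.65 in wild-type. Its difference was 0.02 ± 0.27, and the single low value was that of Tbx5-/+ 1. Tnni3, the cardiac inhibitory troponin, had the widest spread of the thin filament, at 11.78, 14.25, 13.83 and 14.29 in Tbx5-/+ against 13.36, 13.71, 14.18 and 13.13 in wild-type. The 3 other mutant arrays lay inside or just above the wild-type range, so that the difference was -0.05 ± 0.52 with Tbx5-/+ 1 and 0.53 without it. Tnnc1, the calcium sensor, differed by 0.04 ± 0.33 and Tnni1 by -0.03 ± 0.26.

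Actc1, the actin of heart muscle, was the lowest of this role. It read 14.23, 14.82, 14.22 and 14.70 in Tbx5-/+ 1, 5, 6 and 7 and 15.58, 14.90, 14.99 and 14.48 in wild-type. The mutant was lower in 3 of 4 pairs and the groups overlapped, for a difference of -0.49 ± 0.26 (adjusted p = 0.280). Tpm1, tropomyosin, differed by 0.16, 0.09 and -0.21 on its 3 probes, and the last of these, the probe nearest the 3' end, was lower in 4 of 4 pairs with an SE of 0.17.

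Among Z-disc, titin and assembly genes 4 of 11 were higher and 7 lower, with a median of -0.12, 0 calls by limma and 0 at an unadjusted p under 0.05 on the brightest probes. Des, the muscle intermediate filament that ties Z-discs together, was spotted 10 times on each array, with a coefficient of variation of 2.25% to 4.95% between spots. It read 11.06, 11.15, 9.01 and 10.65 in Tbx5-/+ 1, 5, 6 and 7 and 11.34, 11.48, 11.42 and 11.33 in wild-type. Every mutant array was below every wild-type array, which no other member showed on its brightest probe. Of all probes, 8.96% were lower without overlap, a larger share than this 1 of 40 members. The difference was -0.93 ± 0.42 (1.90-fold lower; adjusted p = 0.230; exact permutation p = 0.0286, the smallest that 70 assignments allow). That permutation p only restates the lack of overlap. Much of the difference came from Tbx5-/+ 6, without which it was -0.44. It was -0.31 on the first slide and -1.54 on the second.

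Smpx, a small stress-responsive protein of striated muscle, had the largest positive difference of the members on their brightest probes and one of the widest spreads. It read 10.63, 13.51, 13.82 and 13.89 in Tbx5-/+ 1, 5, 6 and 7 and 11.74, 12.29, 13.09 and 11.44 in wild-type. Tbx5-/+ 1 was the lowest of all 8 arrays and the other mutant arrays were the 3 highest. The difference was 0.83 ± 0.69 (adjusted p = 0.467), and 1.60 without Tbx5-/+ 1 (adjusted p = 0.0260).

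Ankrd1, a titin-binding protein that responds to stretch, read 12.31, 13.00, 14.01 and 13.86 in Tbx5-/+ 1, 5, 6 and 7 and 13.29, 11.82, 13.11 and 11.999 in wild-type. The 2 highest arrays were mutant and the groups overlapped, for a difference of 0.74 ± 0.45 (adjusted p = 0.333). The 2 slides differed, with 0.10 on the first and 1.38 on the second. Actn2, the alpha-actinin that crosslinks thin filaments in the Z-disc, was 11.52, 12.47, 11.17 and 12.21 in Tbx5-/+ and 12.55, 12.31, 12.73 and 12.05 in wild-type. Its difference was -0.57 ± 0.30 (adjusted p = 0.277), with Tbx5-/+ 6 and 1 below all the rest. Ldb3, a Z-disc PDZ protein, differed by 0.34 and 0.15 on 2 probes that were well above background on 3 and 2 Tbx5-/+ arrays, and its remaining probe was so on 0 Tbx5-/+ arrays. Nebl, a nebulin relative of heart muscle, differed by 0.38 on its brightest probe and by -0.02 on another that was well above background on 2 Tbx5-/+ arrays. Csrp3, Smyd1, Tcap and Unc45b, which sense stretch at the Z-disc or help to fold and assemble myosin and titin, had differences from -0.34 to -0.04 on their brightest probes.

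Ttn, the giant spring of the sarcomere, gave an answer that depended on the probe. Its brightest probe, at the 3' end of the gene, read 9.52, 11.52, 11.49 and 12.01 in Tbx5-/+ 1, 5, 6 and 7 and 10.95, 11.69, 12.41 and 11.51 in wild-type, with a difference of -0.51 ± 0.51 (adjusted p = 0.553). The first Ttn probe printed above, 241.0 kb towards the 5' end, read 7.77, 7.01, 7.72 and 7.42 in Tbx5-/+ and 8.77, 8.81, 9.54 and 8.94 in wild-type. Here every mutant array lay below every wild-type array, by -1.54 ± 0.25 (2.90-fold lower; adjusted p = 0.0922, and 0.0336 with the replicate block). The 5'-most probe, the second one printed, was well above background on all 4 wild-type arrays but on 1 Tbx5-/+ array, so that it was tested through the group where it is high and its mutant values are mostly at background. It read 6.93, 6.45, 7.37 and 6.47 in Tbx5-/+ and 7.41, 8.02, 8.28 and 7.60 in wild-type, a fitted difference of -1.02 ± 0.28 (adjusted p = 0.122, and 0.0363 with the block). These 2 probes differed by -1.40 and -1.03 on the first slide and by -1.67 and -1.02 on the second. A further probe between them and the 3' end differed by -0.12 ± 0.33. The remaining 5 Ttn probes were well above background on too few arrays to be tested.

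Within arrays, the first 5' probe minus the 3' probe of Ttn was -1.76, -4.50, -3.78 and -4.59 in Tbx5-/+ 1, 5, 6 and 7 and -2.18, -2.88, -2.87 and -2.58 in wild-type. Tbx5-/+ 1 was the highest of all arrays and the other mutant arrays were the 3 lowest, and the difference of -1.03 between genotypes did not pass the exact permutation test (p = 0.171; adjusted p = 0.245 over 10 contrasts). Without Tbx5-/+ 1 it was -1.66.

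**Figure D5:**
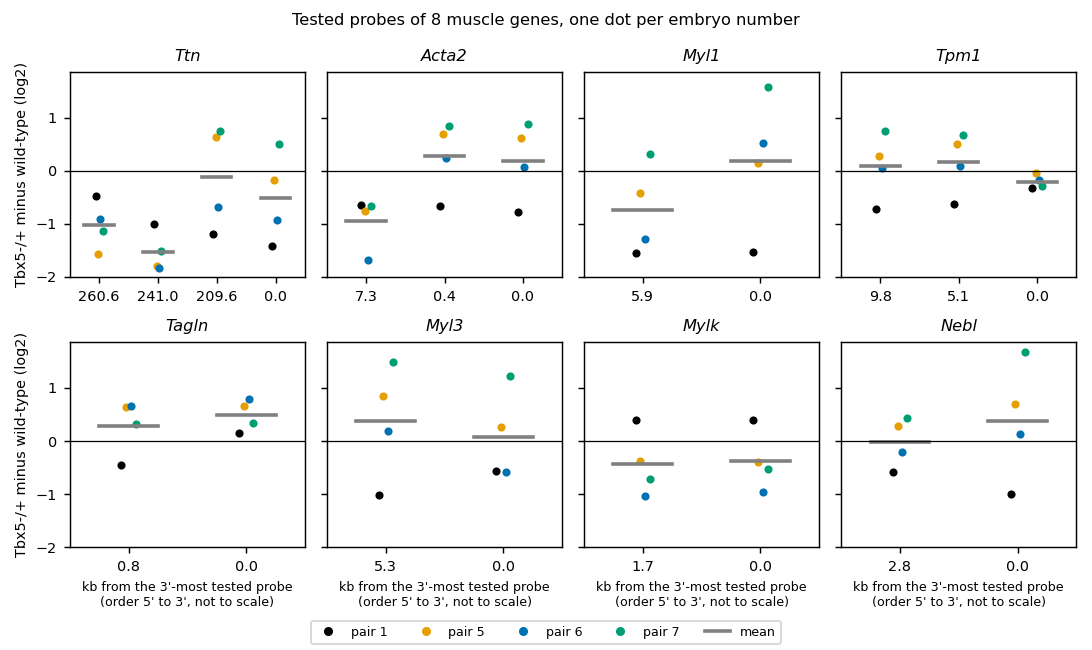
Difference between Tbx5-/+ and wild-type of the same embryo number (y axis, log2; grey bar, mean of 4 pairs) for each tested probe of 8 genes, ordered from 5' to 3' with the distance to the 3'-most tested probe in kb. The 2 Ttn probes at 260.6 and 241.0 kb lie below 0 in all 4 pairs, as does the Acta2 probe at 7.3 kb, while their probes nearer the 3' end lie on both sides of 0. The Ttn probe at 260.6 kb and the Myl1 probe at 5.9 kb were well above background on 1 Tbx5-/+ array.

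Acta2 also gave different values on different probes. Acta2, smooth muscle alpha-actin, which is also the first actin of the forming heart, read 15.89, 16.71, 16.64 and 16.72 on its brightest probe in Tbx5-/+ 1, 5, 6 and 7 and 16.56, 16.02, 16.41 and 15.89 in wild-type. This probe was spotted 10 times, with a coefficient of variation of 1.02% to 3.10%, and differed by 0.27 ± 0.25. The 5' probe printed above read 14.05, 13.51, 12.47 and 13.68 in Tbx5-/+ and 14.70, 14.27, 14.16 and 14.34 in wild-type. On that probe all mutant arrays were lower, by -0.94 ± 0.32 (1.92-fold lower; adjusted p = 0.180, and 0.0424 with the replicate block). The 5' minus the 3' probe differed by -1.21 between genotypes (exact permutation p = 0.0857; adjusted p = 0.229).

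Myl1, an essential light chain of fast skeletal muscle that the embryonic heart also uses, differed by 0.18 ± 0.49 on its 3' probe and by -0.73 ± 0.36 on its 5' probe. The 5' probe was well above background on 1 Tbx5-/+ array and on all 4 wild-type arrays, so its mutant values are mostly at background and the difference is a description only. For Tagln the 5' minus the 3' probe differed by -0.19. Other members had the opposite order: Myl3 differed by 0.37 on its 5' probe and 0.08 on its 3' probe, and Tpm1 by 0.09 and 0.16 on its probes towards the 5' end and -0.21 on the 3' one.

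Over 2583 probe pairs of single genes on the array, the 5' probe minus the 3' probe had a median of -1.72, -2.16, -2.37 and -2.32 in Tbx5-/+ 1, 5, 6 and 7 and of -1.68, -1.91, -1.998 and -1.87 in wild-type. The gap was wider in Tbx5-/+ 5, 6 and 7 than in every wild-type array, and narrow in Tbx5-/+ 1. With this gap as a covariate, the first Ttn probe differed by -1.55 (adjusted p = 0.0992), the 5'-most Ttn probe by -1.16 and the Acta2 5' probe by -0.47 (adjusted p = 0.454).

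Isoforms best known from skeletal muscle had a median of -0.03, with 3 of 7 higher, 0 calls by limma and 0 at an unadjusted p under 0.05. Acta1, skeletal alpha-actin, read 11.02, 10.77, 9.28 and 10.81 in Tbx5-/+ 1, 5, 6 and 7 and 11.72, 11.17, 11.49 and 10.61 in wild-type. Tbx5-/+ 6 was far below the rest, and the difference was -0.78 ± 0.40 (adjusted p = 0.263), or -0.38 without Tbx5-/+ 6. Tnni2, the fast inhibitory troponin, was 10.72, 13.26, 12.97 and 12.92 in Tbx5-/+ and 12.05, 12.09, 12.79 and 11.91 in wild-type. In contrast to Acta1, its outlying array was Tbx5-/+ 1, with the other mutant arrays above all wild-type ones, and its difference went from 0.25 ± 0.51 to 0.84 without that array (adjusted p = 0.0438). Tnnt3, fast troponin T, differed by -0.28 ± 0.32 and -0.21 ± 0.30 on its 2 probes, and the others, Tnnc2, Tnnt1 and Tpm2, by -0.11 to 0.15.

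Regulators of skeletal muscle fate were mostly dim in the same samples. Of 10 genes listed for somites and muscle precursors, 2 were tested, and these were the somite genes Meox1 and Tcf15. Myf5 was well above background on 0 arrays of either genotype, Myod1 on 0 Tbx5-/+ and 1 wild-type array, and Myog on 3 arrays of each. The mean of Meox1 and Tcf15 ran from 10.6 to 11.7 in Tbx5-/+ and from 10.6 to 11.6 in wild-type.

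Smooth muscle contractile proteins were higher in 5 of 7 cases, with a median of 0.27, and limma called 0 of them (0 at an unadjusted p under 0.05). Tagln, an actin-binding protein that is an early marker of smooth muscle and embryonic heart, read 14.58, 15.43, 15.86 and 15.42 in Tbx5-/+ 1, 5, 6 and 7 and 14.43, 14.78, 15.07 and 15.08 in wild-type. It was higher in 4 of 4 pairs and the groups overlapped only through Tbx5-/+ 1, for a difference of 0.48 ± 0.29 (adjusted p = 0.315, and 0.0492 without that array). Myl9, the regulatory light chain of smooth muscle myosin, was 15.40, 17.05, 17.25 and 17.04 in Tbx5-/+ and 16.18, 16.17, 16.72 and 16.01 in wild-type. Here Tbx5-/+ 1 was the lowest and the other mutant arrays the highest of all 8, with 3 of 4 pairs higher and a difference of 0.41 ± 0.39. Lmod1, an actin nucleator, differed by 0.39 ± 0.32.

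Mylk, the kinase that activates smooth muscle myosin, had a negative difference. It read 9.94, 9.35, 8.82 and 9.05 in Tbx5-/+ 1, 5, 6 and 7 and 9.54, 9.73, 9.85 and 9.76 in wild-type. Here Tbx5-/+ 1 was the highest array and the other mutant arrays the 3 lowest, for a difference of -0.43 ± 0.25 (adjusted p = 0.306). It was -0.65 without Tbx5-/+ 1 (adjusted p = 0.0422) and -0.11 with the gap covariate (adjusted p = 0.852). Myh11, the myosin heavy chain of mature smooth muscle, ran from 6.54 to 7.59 over all arrays and differed by 0.08 ± 0.25. Cnn1, an actin-binding protein of smooth muscle, differed by -0.20 ± 0.22.

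Further contractile and muscle structure genes were taken from a list of 41, of which 31 were tested. Of these, 23 were lower and 8 higher, with a median of -0.41. At an unadjusted p under 0.05 there were 7 lower and 0 higher (background 18.5% and 3.39%), and limma called 0. The replicate block called 5, all lower, where it called 10.7% of all probes as lower. Of the 31, 4 had an unadjusted p under 0.05 and no overlap between genotypes, where 8.96% of all probes were lower without overlap. They were picked by these values, and all are found outside striated muscle as well. Cald1, the actin-binding caldesmon, read 9.001, 8.51, 7.85 and 8.203 in Tbx5-/+ 1, 5, 6 and 7 and 9.80, 10.30, 9.58 and 10.25 in wild-type, a difference of -1.59 ± 0.28 (adjusted p = 0.0922, and 0.0336 with the block). The others were Myl6b, a nonmuscle and smooth muscle light chain, at -1.06 ± 0.27, Actg2, enteric smooth muscle actin, at -0.79 ± 0.27, and Actn1, nonmuscle alpha-actinin, at -0.74 ± 0.27.

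The 2 regulators of transcription on this list that were called lower with the block were Myocd and Mef2c, named after their values were seen. Myocd, the coactivator through which serum response factor (Srf) drives smooth muscle and heart muscle genes, read 10.85, 8.16, 8.05 and 8.66 in Tbx5-/+ 1, 5, 6 and 7 and 11.41, 10.01, 10.23 and 10.25 in wild-type. It was lower in each pair, by -1.55 ± 0.59 (adjusted p = 0.201, and 0.0336 with the block), although the high Tbx5-/+ 1 overlapped the wild-type range. Mef2c, a MADS-box factor of muscle and of the second heart field, differed by -1.25 ± 0.35 (adjusted p = 0.134, and 0.0407 with the block). Srf itself differed by -0.11 ± 0.23.

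Promoters of the members were searched for letters that such factors are known to bind. The RefSeq table on GRCm38.p6 held 43 windows for 34 of the 40 members, and the 250 bases before each start were read on both strands. A CArG box, the serum response factor site, was present in 9 of the 43 windows (20.9%), against 1.47% of all 32851 windows. These were the windows of Acta1, Actc1, Ldb3, Myl3, Myl7, Myl9, Myom1 and Nebl, and Ldb3 had 2. A MEF2 site was in 2 windows (4.65%, against 2.92% of all), those of Mybpc3 and Ttn. The letters AGGTGTG, the core of a T-box site, were in 4 windows (9.3%, against 5.1%), of Nebl, Tnni1 and Tnni3. The letters TATAAA, which overlap the MEF2 search in part, were in 5 (11.6%, against 12.4%).

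Of the 8 genes with a CArG box, Myl7, Myl9, Ldb3 and Nebl had differences from 0.34 to 0.61 on their brightest probes, and Acta1, Actc1 and Myom1 had differences from -0.78 to -0.49, with Myl3 at 0.08. A match is a description of letters and not of binding. The windows of 2 actins and of Myl7 are shown because these genes lay on both sides of 0, with the CArG box in capitals, on the minus strand of GRCm38.p6.
Actc1, chr2:114052876-114053125: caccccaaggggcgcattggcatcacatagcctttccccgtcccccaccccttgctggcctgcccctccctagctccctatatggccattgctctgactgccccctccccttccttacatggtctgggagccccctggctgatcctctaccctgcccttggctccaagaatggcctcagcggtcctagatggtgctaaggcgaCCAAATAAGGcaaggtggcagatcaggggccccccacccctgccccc
Acta1, chr8:123894776-123895025: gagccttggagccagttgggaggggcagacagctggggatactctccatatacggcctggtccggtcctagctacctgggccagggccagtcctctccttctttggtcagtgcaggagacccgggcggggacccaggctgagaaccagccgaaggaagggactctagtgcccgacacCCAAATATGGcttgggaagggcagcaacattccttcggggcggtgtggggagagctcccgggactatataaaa
Myl7, chr11:5898783-5899032: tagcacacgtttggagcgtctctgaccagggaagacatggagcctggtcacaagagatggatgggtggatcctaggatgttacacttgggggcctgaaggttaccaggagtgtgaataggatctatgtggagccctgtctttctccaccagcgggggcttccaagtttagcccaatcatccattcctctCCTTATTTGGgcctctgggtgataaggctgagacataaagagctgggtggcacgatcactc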

How the data were processed

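RNA of 8 pSHF samples was amplified, labelled with Cy3 and hybridized to 1 array each. The deposited scanner files hold intensity values from Agilent Feature Extraction 10.5.1.1, and the authors deposited a table of log2 values after background correction and variance stabilization of the same arrays. Here the local background median was taken off each mean signal, 1115 outlier spots were left out and variance stabilization was fitted in R 4.3.3 (90% of probes kept, 7 iterations). On every array r with the deposited values was at least 0.9999, across probes, which are not independent. Tested probes had to stand well above background on each of the 4 arrays in 1 genotype or both (20028 of 41174 probes, 48.6%). No spot was saturated (0).

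Groups were compared with limma 3.58.1 (two-sided, no covariate) over all probes tested with Benjamini-Hochberg adjustment. A gene was represented by its brightest tested probe unless another is named. Single values were compared by exact permutation over 70 assignments. Embryo numbers in the titles were taken to pair samples, since same-numbered samples deviated together (correlations of 0.44, 0.40, 0.59 and 0.14 for numbers 1, 5, 6 and 7). The 2 slides hold numbers 1 and 5, and 6 and 7, with 2 arrays of each genotype. Coordinates of probes are those of mm9. The scripts were tested on simulated data: of 200 probes changed by 1, 2 or 3 on the log2 scale among 20021, 25, 143 and 192 were recovered. The number of arrays limits the precision.

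The members and all lists were chosen with earlier results of these data known. Genes named with values were Myh6, Myh7, Myl7, Tnnt2, Actc1, Ttn, Acta2 and Myh11, the 4 members of each role with the largest difference, members with probes of opposite sign, Tbx5, and other contractile genes with an unadjusted p under 0.05 and no overlap. The alternatives were scaling to the 75th percentile, normexp (offset 50) with quantile normalization, the deposited values, no filter, the filter of the study's methods, blocks for replicate and slide, array weights, the 5' to 3' gap as covariate, the mean of a gene's probes and each array left out.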

Additional observations from a re-analysis of the deposited data

Results flagged for a closer look

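In 8 of 56 groups of 4 arrays (the brightest probe of 28 named genes in each genotype), 1 array stood apart from the rest of its genotype. In these it passed Dixon's 95% limit, which chance passes in about 1 of 20 independent groups. In 6 of these the array was Tbx5-/+ 1, below the rest: Acta2 at 15.89 (next array 16.64), Myl1 at 10.93 (12.91), Myl9 at 15.40 (17.04), Tnni2 at 10.72 (12.92), Tpm1 at 15.53 (16.49) and Smpx at 10.63 (13.51). Acta1 stood apart in Tbx5-/+ 6, at 9.28 against 10.77 for the next array. Myh11 stood apart in wild-type 1, at 6.54 against 7.13. The 56 groups are not independent, since the muscle genes varied together between arrays and some were named for large differences. The count of 8 therefore cannot be set against the rate of 1 in 20.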

How the results depend on the processing

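The median of the members relative to that of all probes was 0.22 and stayed above 0 with each array left out (0.07 to 0.52), but it was -0.18 when the 5' to 3' gap entered the fit, -0.0078 without a filter on dim probes and 0.79 with array weights. The count of called member probes was 0 to 10 with single arrays left out and 3 with the replicate block. It was 1 after the methods' filter and 38 with array weights. Over all probes the same fits called, in this order, 0 to 3842 of 20028, 2218 of 20028, 309 of 9136 and 10001 of 20028. At an unadjusted p under 0.05 the number lower was 3 to 9 with single arrays left out and 5 with the replicate block. It was 7 with the gap covariate and 7 with array weights. Over all 20028 probes it was 2050 to 5445, 5929, 2968 and 7500 in the same order. The number of member probes higher was 0 to 12 with single arrays left out and 6 after 75th percentile scaling. It was 3 with the replicate block, 2 with the slide block and 33 with array weights. Over all probes it was 173 to 2924, 3118, 1055, 791 and 3921 in the same order. Tbx5 differed by -2.39 to -1.95 with single arrays left out, by -2.12 with the replicate block (adjusted p = 0.0336) and with the methods' filter (0.0290), and by -2.52 with array weights. The replicate block also turned the Ttn and Acta2 5' probes, Cald1, Myl6b, Myocd, Mef2c and Cnn2 into calls, all lower, and changed no call on the brightest probe of a member. The cause of these changes was not tested.

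Signs turned both for genes near 0 and for some of the larger differences. With the gap covariate they turned for Tnnt3 (0.15), Myl1 (-0.65), Tagln (-0.0090), Smpx (-0.55), Nebl (-0.037), Tpm1 (-0.26), Tnnc1 (-0.42), Tnni2 (-0.67), Myl2 (-0.052), Tnnt2 (-0.34) and Myl9 (-0.30). With array weights they turned for Ttn (0.17), Tnni3 (0.79), Myom1 (0.050), Myl4 (0.63) and Myh11 (-0.18). The 75th percentile scaling turned Tnni3 (0.31), Tnnt3 (0.014) and Myl4 (0.37), quantile normalization Tpm1 (-0.11), Tnnt3 (0.060), Tnnt2 (-0.23) and Acta2 (-0.036), the deposited values Tnnt2 (-0.0018), and averaging of all probes per gene Myl1 (-0.28), Acta2 (-0.16) and Myl4 (0.025). With single arrays left out the differences of 8 genes crossed 0: Myh11 (-0.080 to 0.19), Myl1 (-0.081 to 0.71), Myl4 (-0.19 to 0.30), Tnnc1 (-0.15 to 0.34), Tnni2 (-0.012 to 0.84), Tnni3 (-0.30 to 0.53), Tnnt2 (-0.14 to 0.25) and Ttn (-0.80 to 0.031). Myh7 minus Myh6, chosen like its alternatives after seeing the data, was 1.52 to 1.77 over the scalings and 1.14 to 2.36 with single arrays left out. The median of all probes was -0.19, 0.10 after 75th percentile scaling and -0.02 after quantile normalization. Member probes not well above background (11 of 75) have no tested value.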
